A study of Homo sapiens with 6 samples.

Results

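The 32 genes described here encode enzymes that make, recycle or break down purine and pyrimidine nucleotides, and a transporter of nucleosides. They were taken by name from the gene table of a study of NCI-H1299 cells, an established human lung cancer line that the labels give as lung adenocarcinoma and that is known to lack p53. All 32 were found by Ensembl ID among the 28495 genes of the table, and 30 of them were among the 12466 genes tested, those with a mean of at least 0.5 FPKM (fragments per unit of gene length and sequencing depth) over 6 libraries. The study set NCI-H1299 cells in which complement factor B (CFB) was silenced (sh-CFB, 3 libraries) against control cells of the same line (sh-NC, 3 libraries), and no other treatment, time or genotype is given. All 6 libraries came from a single cell line. The question was which transcripts differ once CFB, a protease component of the alternative complement pathway, is silenced. The labels do not say that the replicates were separate cultures, so each p-value covers the spread among these 6 samples alone, and that spread may be technical.

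Cells build purines stepwise on phosphoribosyl pyrophosphate (PRPP) until the ring of inosine monophosphate (IMP) is closed, and then turn IMP into AMP or GMP. The pyrimidine ring is made first and joined to PRPP afterwards, which gives UMP and then, through amination of UTP, CTP. Kinases add phosphates, ribonucleotide reductase makes the deoxynucleotides used for DNA, and salvage enzymes return free bases and nucleosides to the pool. Many of these enzymes are known to be needed in larger amounts by cells that are replicating DNA.

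In sh-CFB cells 11 of the 30 tested genes fell and 0 rose, and the 11 belonged to 3 of the 6 steps into which the genes were sorted. PRPP supply and closure of the purine ring held 4 of them, pyrimidine ring and CTP synthesis 3, and deoxynucleotide supply 4. The steps from IMP to AMP and GMP, the nucleotide kinases, and salvage with uptake held none, among 4, 4 and 3 tested genes. At an unadjusted limma p under 0.05, NME1 and HPRT1 were lower there and GUK1 was higher. That unadjusted cutoff was also met, in either direction, by 3225 of the 12466 tested genes. The test was limma's moderated test on log2(FPKM + 0.5), adjusted by Benjamini-Hochberg over the whole tested table, with 0.05 as the threshold. Over all tested genes, 5.71% were lower and 1.74% were higher by the same rule, against 36.7% lower among the nucleotide genes. Their median log2 difference, sh-CFB minus sh-NC, was -0.46, and that of all tested genes was -0.15. The genes and steps were chosen with earlier results of these data known, so these comparisons are descriptions. In bulk RNA, fewer cells in a given state and less RNA per cell cannot be told apart.

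The largest falls among the nucleotide genes were those of CTPS1, GART, RRM2 and PRPS1. The bases before the start sites of RRM2, CTPS1 and TYMS are shown here as examples of 3 genes that moved together, each with 250 bases up to the RefSeq start on GRCh38.p14, all on the plus strand. The windows are chr2:10122489-10122738 for RRM2, chr1:40979446-40979695 for CTPS1 and chr18:657403-657652 for TYMS. These RefSeq starts differ from the annotated gene starts given below, 10120698, 40979335 and 657604. The RRM2 and CTPS1 windows lie inside the annotated genes. The TYMS window runs past the annotated start, and its E2F match lies after that start. Capitals mark CCAAT boxes in RRM2 and a match to the E2F core in TYMS, and the CTPS1 window held none of the motifs searched. By adjusted p, PRPS1 and DUT lie between CTPS1 and TYMS, and their windows are not shown. The PRPS1 window held 1 CCAAT box and the DUT window none of the motifs.
RRM2: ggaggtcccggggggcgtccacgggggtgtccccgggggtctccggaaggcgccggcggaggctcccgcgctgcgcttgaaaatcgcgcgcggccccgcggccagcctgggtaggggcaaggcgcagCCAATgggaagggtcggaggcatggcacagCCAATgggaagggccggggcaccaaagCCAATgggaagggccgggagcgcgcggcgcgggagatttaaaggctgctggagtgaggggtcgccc
CTPS1: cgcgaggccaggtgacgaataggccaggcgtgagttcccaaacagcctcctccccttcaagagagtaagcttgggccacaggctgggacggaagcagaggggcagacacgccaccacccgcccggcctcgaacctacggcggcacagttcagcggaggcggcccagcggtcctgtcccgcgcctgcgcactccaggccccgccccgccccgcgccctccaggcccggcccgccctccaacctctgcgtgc
TYMS: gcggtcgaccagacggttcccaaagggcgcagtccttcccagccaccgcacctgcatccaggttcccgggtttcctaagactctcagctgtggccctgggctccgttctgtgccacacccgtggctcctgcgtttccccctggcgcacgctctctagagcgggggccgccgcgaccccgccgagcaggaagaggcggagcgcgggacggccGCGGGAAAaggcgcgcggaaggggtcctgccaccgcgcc

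In RRM2 the CCAAT boxes began at positions -123, -93 and -66 relative to the start, each followed by the same run of bases. In TYMS the match was GCGGGAAA at position -39, the reverse complement of TTTCCCGC. These letters were searched on both strands of RefSeq windows from 250 bases before to 50 after the start. Such windows were found for 30 of the 32 genes and for 27305 genes in all. Only the first listed window of each gene was used, and some lie away from the annotated start. The PAICS window, 56410257 to 56410556 on chromosome 4, lies inside PPAT, while the annotated PAICS start is 56435741. CCAAT was present in 30.0% of the windows of the nucleotide genes and in 35.7% of all windows, and in 5 of the 11 windows of the genes that fell. The E2F core, searched as TTTCCCGC, TTTCGCGC, TTTGCCGC or TTTGGCGC, was present in 2 of the 30 windows (6.67%) and in 3.33% of all windows. Of those 2, 1 belonged to a gene that fell (TYMS) and 1 to a tested gene that did not pass (PRPS2). The E-box CACGTG was present in 6 of the 30 windows (20.0%) and in 7.43% of all windows, and 1 of those 6 belonged to a gene that fell. The amino acid response element TGATGNAA was in none of the 30 windows and in 3.67% of all. These are matches of letters, given as a description.

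The libraries differed in more than their group. Recovered depth was 26.2 to 38.4 M reads (M, 1e6) in sh-CFB libraries and 32.9 to 40.0 M in sh-NC libraries. On the first principal component, with 56.6% of the variance, sh-CFB replicate 1 and sh-NC replicate 1 lay at opposite ends, and these 2 libraries also leaned in opposite directions with the GC content of genes (Spearman correlations across genes of 0.60 in sh-CFB replicate 1 and -0.55 in sh-NC replicate 1). CFB itself had 0, 0 and 2 reads in the sh-CFB libraries and 1, 6 and 5 reads in the sh-NC libraries, too few to check the labels. Of the lung adenocarcinoma markers, 6 were in the table and the highest of them reached 0.339 FPKM in any library. Of the epithelial markers, KRT8 and KRT18 were abundant and KRT7 was low, at 1.21 to 1.79 FPKM over the libraries. KRT19 (0.0326 to 0.218 FPKM), EPCAM and CDH1 were at or near 0. Markers of fibroblasts (5 genes, summed FPKM 0.245 to 0.322 in sh-CFB and 0.258 to 0.329 in sh-NC), immune cells (6 genes, 0.00832 to 0.160 in sh-CFB and 0.0659 to 0.361 in sh-NC) and endothelial cells (6 genes, 0.0717 to 0.199 in sh-CFB and 0.135 to 0.225 in sh-NC) were near 0 in both groups.

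**Figure D1:**
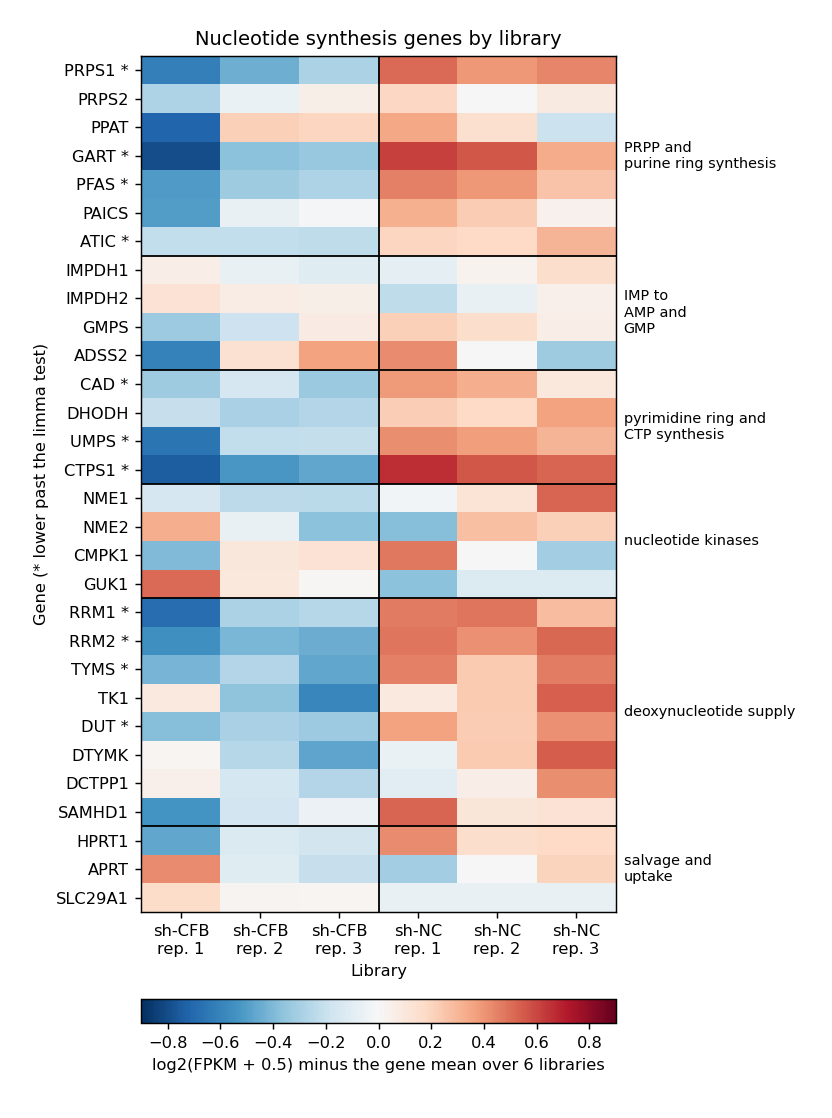
Level of each of the 30 tested nucleotide genes (rows, by step) in the 6 libraries (columns, sh-CFB left of sh-NC), as log2(FPKM + 0.5) minus the gene's mean over the libraries; an asterisk marks the 11 genes that fell. The rows with asterisks are blue in all 3 sh-CFB libraries and red in all 3 sh-NC libraries, and rows such as PPAT, ADSS2 and CMPK1 separate sh-CFB replicate 1 from the other sh-CFB libraries.

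PRPP supply was the first step with a change. PRPS1 (ENSG00000147224, chromosome X, 107628424 to 107651026 on GRCh38, plus strand) encodes a PRPP synthetase. It stood at 7.43, 8.49 and 9.52 FPKM in sh-CFB replicates 1, 2 and 3, against 16.8, 15.5 and 16.0 FPKM in sh-NC replicates 1, 2 and 3. The groups did not overlap, and every sh-NC library was above the highest sh-CFB library. The log2 difference was -0.89 ± 0.12 (SE; limma adjusted p = 0.0118). Its paralog PRPS2, a second PRPP synthetase, had 4.55, 5.38 and 5.85 FPKM in sh-CFB and 6.45, 5.63 and 5.98 FPKM in sh-NC. The PRPS2 groups overlapped, and the difference of -0.18 ± 0.14 did not pass (adjusted p = 0.436).

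The enzymes that assemble the ring were split. PPAT, which commits PRPP to purine synthesis, had 1.49, 3.28 and 3.23 FPKM in sh-CFB against 3.65, 3.11 and 2.36 FPKM in sh-NC. Only sh-CFB replicate 1 lay below the sh-NC range, and the log2 difference was -0.20 ± 0.28 (adjusted p = 0.697) with all libraries and 0.10 without that library. GART (ENSG00000159131, chromosome 21, 33503931 to 33543491, minus strand), a single protein that carries out several of the ring steps, had 7.13, 9.80 and 9.96 FPKM in sh-CFB against 19.8, 19.1 and 16.3 FPKM in sh-NC. All GART values of sh-CFB lay below those of sh-NC, and the log2 difference was -1.01 ± 0.15 (adjusted p = 0.0136). PFAS (ENSG00000178921, chromosome 17, 8247618 to 8270491, plus strand), which adds an amide nitrogen from glutamine, had 6.98, 8.02 and 8.26 FPKM in sh-CFB against 14.1, 13.5 and 12.2 FPKM in sh-NC. Here too the groups were apart, by -0.74 ± 0.12 (adjusted p = 0.0148).

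PAICS, which carries out 2 steps of the pathway, lies head to head with PPAT on chromosome 4, their annotated starts 126 bases apart. It had 8.58, 11.8 and 12.3 FPKM in sh-CFB against 15.6, 14.6 and 12.7 FPKM in sh-NC. The groups did not overlap by a narrow margin, and the difference of -0.39 ± 0.16 did not pass (adjusted p = 0.172). ATIC (ENSG00000138363, chromosome 2, 215311817 to 215349773, plus strand), which closes the ring, had 24.3, 24.3 and 24.2 FPKM in sh-CFB against 32.6, 32.2 and 35.2 FPKM in sh-NC. The sh-CFB libraries were nearly equal and all below sh-NC, a small difference of -0.45 ± 0.09 (adjusted p = 0.0258). After a correction of each library for GC content and length the ATIC difference was -0.18 and did not pass (adjusted p = 0.244), and the call was also lost in limma without an intensity trend (adjusted p = 0.0676). ADSL, which acts both in ring synthesis and in AMP synthesis, was below the filter at 0.0378, 0.215 and 0.112 FPKM in sh-CFB and 0.322, 0.151 and 0.178 FPKM in sh-NC, from 12 to 154 reads. It shares 1344 exon bases (18.9% of its annotated exons) with the same-strand gene AL022238.4, which had 0 to 6 reads. The length behind the deposited ADSL values was 12109 bases against 7111 annotated, so that share may differ in the counting used. A part of shared exons in the low ADSL value was not tested.

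From IMP onward, no gene of the steps to AMP and GMP passed the test in either direction. IMPDH2, the main form of the enzyme that opens the route to GMP in dividing cells, was the most abundant of the nucleotide genes per length, with 263, 251 and 249 FPKM in sh-CFB against 205, 229.6 and 248 FPKM in sh-NC. Its sh-CFB libraries were all above the highest sh-NC library, the closest by a narrow margin, and the log2 difference was 0.16 ± 0.10 (adjusted p = 0.363). IMPDH1, the other form, averaged 32.1 ± 1.99 FPKM in sh-CFB and 33.8 ± 2.83 FPKM in sh-NC (SD, n = 3 each), and the groups overlapped. GMPS, which completes GMP, averaged 9.36 ± 1.40 FPKM in sh-CFB and 11.5 ± 0.648 FPKM in sh-NC, with a difference of -0.29 and a 95% interval of -0.59 to 0.01. ADSS2, which starts the route to AMP, had 3.29, 5.87 and 6.95 FPKM in sh-CFB and 7.26, 5.31 and 4.14 FPKM in sh-NC. Its spread within each group was wider than the difference of -0.07 (interval -0.73 to 0.59).

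In pyrimidine synthesis, 3 of the 4 tested genes fell, and in all 4 the groups did not overlap. Among all tested genes, 23.6% were lower and 10.0% higher in sh-CFB without overlap, against 16 and 3 of the 30 nucleotide genes. CAD (ENSG00000084774, chromosome 2, 27217390 to 27243943, plus strand), the multifunctional protein of the first pyrimidine steps, had 13.2, 14.9 and 13.1 FPKM in sh-CFB against 21.8, 21.0 and 17.8 FPKM in sh-NC. All sh-CFB libraries were lower, by a log2 difference of -0.54 ± 0.12 (adjusted p = 0.0357). The CAD call was lost without a filter on low values (adjusted p = 0.0854), with quantile normalization (0.0606), in limma without an intensity trend (0.0682) and with median-of-ratios factors (0.1998). DHODH, the mitochondrial enzyme that oxidises dihydroorotate, had 2.93, 2.74 and 2.80 FPKM in sh-CFB against 4.12, 3.99 and 4.60 FPKM in sh-NC. These groups were also apart, but the difference of -0.51 ± 0.13 just missed the threshold (adjusted p = 0.0576). It was -0.32 after GC and length correction (adjusted p = 0.151) and -0.33 with median-of-ratios factors (adjusted p = 0.2701). With the filter raised to a mean of 2 FPKM it passed (adjusted p = 0.0401).

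UMPS (ENSG00000114491, chromosome 3, 124730366 to 124749273, plus strand), which joins orotate to PRPP and makes UMP, had 1.12, 1.69 and 1.70 FPKM in sh-CFB against 2.91, 2.81 and 2.66 FPKM in sh-NC. It was the least abundant per length of the genes that fell, with 220 to 490 reads in sh-CFB libraries and 657 to 861 in sh-NC libraries, and the difference was -0.73 ± 0.17 (adjusted p = 0.0478). The UMPS call was lost without the filter (adjusted p = 0.1083), with FPKM rescaled to equal totals (0.0614) and with median-of-ratios factors (0.0554). CTPS1 (ENSG00000171793, chromosome 1, 40979335 to 41012565, plus strand) makes CTP from UTP and is known to be needed for lymphocyte proliferation. Its level was 3.01, 3.57 and 3.74 FPKM in sh-CFB against 8.79, 8.13 and 7.92 FPKM in sh-NC. No library came near the other group, and the log2 difference of -1.16 ± 0.13 was the largest among the 30 genes (adjusted p = 0.00855), a fold of 0.448. Its paralog CTPS2 had 2 reads in sh-CFB replicate 2 and 0 in the other 5 libraries, where 3 reads would be 0.0136 to 0.0207 FPKM, so CTPS1 supplied nearly all CTP synthase reads in both groups. Floors of this kind cover counting error only.

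**Figure D2:**
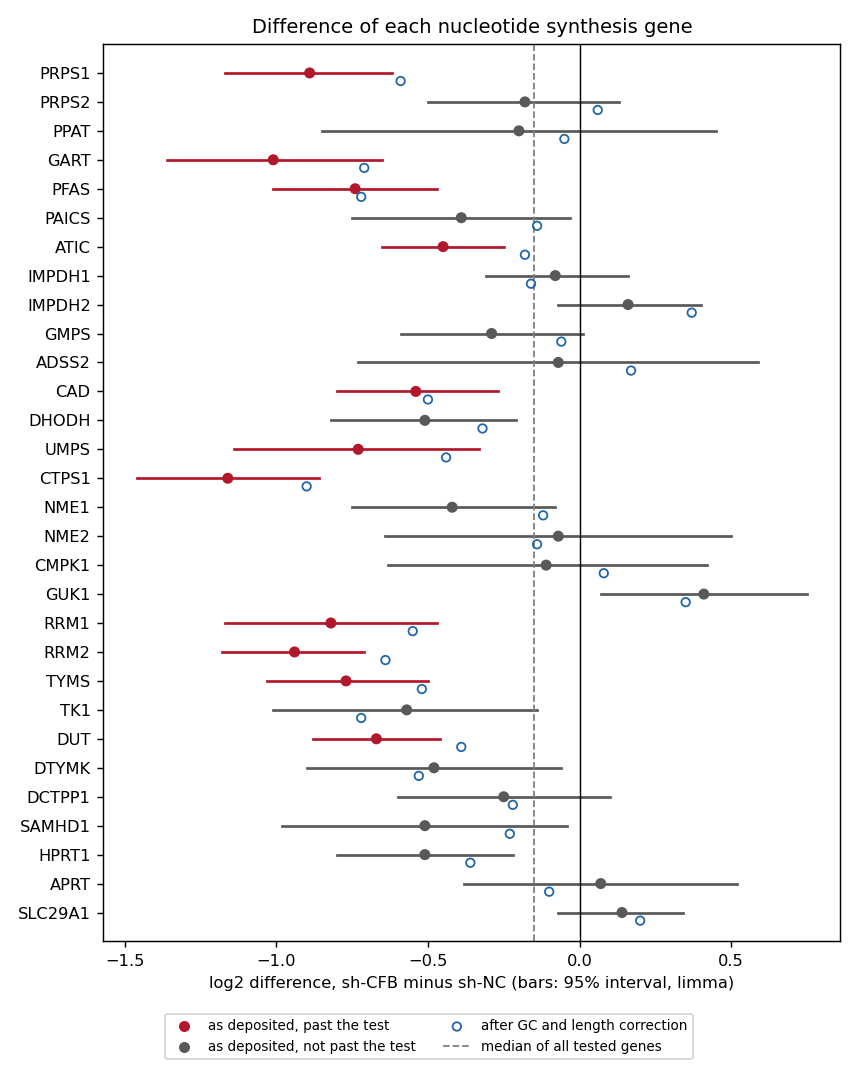
Log2 difference of each tested nucleotide gene, sh-CFB minus sh-NC (horizontal axis), with 95% intervals from limma; red genes passed the test, grey genes did not, open circles are values after GC and length correction and the dashed line is the median of all tested genes, -0.15. The red points run from -1.16 (CTPS1) to -0.45 (ATIC), and GUK1 has the highest value, 0.41.

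None of the 4 kinases passed the test. GUK1, guanylate kinase, had 95.1, 71.3 and 67.0 FPKM in sh-CFB against 51.5, 61.1 and 61.0 FPKM in sh-NC. All sh-CFB libraries were higher, replicate 1 most of all, with a difference of 0.41 ± 0.15 (adjusted p = 0.133). CMPK1, which phosphorylates UMP and CMP, averaged 9.48 ± 1.92 FPKM in sh-CFB and 10.4 ± 3.04 FPKM in sh-NC. NME1, a nucleoside diphosphate kinase, had 19.5, 18.3 and 18.2 FPKM in sh-CFB against 21.3, 23.6 and 31.2 FPKM in sh-NC. The NME1 groups did not overlap, but sh-NC was widely spread and the difference of -0.42 ± 0.15 did not pass (adjusted p = 0.125). NME2, its neighbour and close paralog, averaged 2.65 ± 0.766 FPKM in sh-CFB and 2.80 ± 0.767 FPKM in sh-NC. NME1 and NME2 share 638 and 603 exon bases with the read-through gene NME1-NME2, so their levels are uncertain.

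Deoxynucleotide supply had 8 tested genes, of which 4 fell. All 8 differences were below 0, where the median of all tested genes was also below 0, at -0.15. As sorted, this step also holds SAMHD1 and DCTPP1, which break deoxynucleotides down. RRM2 (ENSG00000171848, chromosome 2, 10120698 to 10131419, plus strand) is the small subunit of ribonucleotide reductase, known to be made mainly in S phase. It had 7.46, 8.28 and 8.06 FPKM in sh-CFB against 15.8, 15.1 and 16.2 FPKM in sh-NC. Both groups were tight and far apart, with a log2 difference of -0.94 ± 0.10 (adjusted p = 0.00778), the lowest adjusted p among the nucleotide genes. RRM1 (ENSG00000167325, chromosome 11, 4094707 to 4138876, plus strand), the large subunit, had 3.97, 5.41 and 5.54 FPKM in sh-CFB against 9.48, 9.55 and 8.25 FPKM in sh-NC. RRM1 was lower in all sh-CFB libraries, by -0.82 ± 0.15 (adjusted p = 0.0235), though the call was lost without the filter on low values (adjusted p = 0.0661). The RRM2 exons share 1077 bases (20.2%) with the same-strand gene AC007240.1, and the length behind the deposited RRM2 values was 9153 bases against 5323 annotated, which cancels between groups but not between genes.

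The enzymes of thymidylate supply were measured beside reductase. TYMS (ENSG00000176890, chromosome 18, 657604 to 673578, plus strand), thymidylate synthase, had 9.07, 10.2 and 8.79 FPKM in sh-CFB against 17.0, 14.6 and 17.2 FPKM in sh-NC. The groups were separate, with a log2 difference of -0.77 ± 0.11 (adjusted p = 0.0135). Exons of TYMS share 967 bases (39.1%) with ENOSF1 on the opposite strand, whose own difference was -0.57 (adjusted p = 0.0851), and the strand setting of the counting is not given in the sources used here. DUT (ENSG00000128951, chromosome 15, 48331011 to 48343373, plus strand), which hydrolyses dUTP and so makes the substrate of thymidylate synthase, had 23.4, 24.9 and 24.3 FPKM in sh-CFB against 39.5, 36.1 and 41.0 FPKM in sh-NC. DUT was lower in each sh-CFB library, by -0.67 ± 0.09 (adjusted p = 0.0127), and by -0.39 after GC and length correction (adjusted p = 0.0818).

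The remaining 4 genes of deoxynucleotide supply did not pass. TK1, the thymidine kinase of proliferating cells, had 123, 90.1 and 76.9 FPKM in sh-CFB against 123, 137 and 168 FPKM in sh-NC. The 2 replicate 1 libraries met at the same level while the others were apart, and the difference was -0.57 ± 0.19 (adjusted p = 0.108). Without both replicate 1 libraries it was -0.86 ± 0.13 (adjusted p = 0.0203), and after GC and length correction -0.72 (adjusted p = 0.0183). TK1 missed the threshold under median-of-ratios scaling (-0.37, adjusted p = 0.5245) and under quantile normalization (-0.59, adjusted p = 0.0565). Leaving out 1 library at a time, TK1 passed in 1 of the 6 fits (adjusted p from 0.0425 to 0.255). DTYMK, which phosphorylates dTMP, showed the same layout, with 44.4, 36.6 and 31.4 FPKM in sh-CFB against 42.0, 51.8 and 64.1 FPKM in sh-NC. Its difference was -0.48 ± 0.18 (adjusted p = 0.148), and -0.76 ± 0.13 without both replicate 1 libraries (adjusted p = 0.0268). DTYMK did not pass after GC and length correction (-0.53, adjusted p = 0.0542) or with median-of-ratios factors (-0.28, adjusted p = 0.6204). DCTPP1, which hydrolyses dCTP, averaged 43.6 ± 4.85 FPKM in sh-CFB and 52.4 ± 9.99 FPKM in sh-NC, overlapped between groups, and shares 42.1% of its exon bases with ZNF771 on the opposite strand. SAMHD1, which breaks down deoxynucleotides, was the scarcest tested gene per length, at 0.549, 0.852 and 0.966 FPKM in sh-CFB against 1.68, 1.14 and 1.16 FPKM in sh-NC, with a difference of -0.51 ± 0.20 (adjusted p = 0.169).

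For salvage, HPRT1, which recycles hypoxanthine and guanine with PRPP, had 28.2, 35.8 and 34.8 FPKM in sh-CFB against 52.8, 43.9 and 44.5 FPKM in sh-NC. The groups did not overlap, and the difference of -0.51 ± 0.13 narrowly missed the threshold (adjusted p = 0.0511). After GC and length correction it was -0.36 and passed (adjusted p = 0.0248). With median-of-ratios factors it was -0.31 and did not pass (adjusted p = 0.1908). APRT, which recycles adenine, had 239, 164 and 154 FPKM in sh-CFB and 143, 178 and 204 FPKM in sh-NC. The APRT groups overlapped, sh-CFB replicate 1 being the highest library, with an interval of the difference from -0.38 to 0.52. SLC29A1, the nucleoside transporter ENT1, had 34.8, 31.6 and 31.4 FPKM in sh-CFB against 29.6, 29.5 and 29.5 FPKM in sh-NC. The sh-CFB libraries were all slightly higher, by 0.14 ± 0.09, which did not pass (adjusted p = 0.37).

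Paralogs and subunits were also compared within each library, since a ratio of 2 genes does not move when a whole library is rescaled. The ratio of PRPS1 to PRPS2 on the log2 scale was 0.64 ± 0.02 in sh-CFB and 1.35 ± 0.03 in sh-NC (SD, n = 3 each), so PRPS1 stood closer to PRPS2 in sh-CFB cells. The libraries did not overlap, and the two-sided exact permutation p was 0.1, the smallest that 3 against 3 can give, or 0.2 after Benjamini-Hochberg adjustment over 4 pairs. For IMPDH1 to IMPDH2 the ratio was -2.97 ± 0.04 in sh-CFB and -2.73 ± 0.03 in sh-NC, also without overlap and with the same exact p-values, and the difference of -0.24 was -0.53 after GC and length correction. For RRM2 to RRM1 it was 0.64 ± 0.17 in sh-CFB and 0.76 ± 0.16 in sh-NC (exact permutation p = 0.4, adjusted 0.4), and the difference of -0.12 was within the spread of either group. The NME1 to NME2 ratio, 2.63 ± 0.30 in sh-CFB and 2.98 ± 0.28 in sh-NC, overlapped as well (exact permutation p = 0.2, adjusted 0.2667), and its difference of -0.35 was 0.03 after that correction. The levels of PRPS1 and IMPDH2 rest on deposited lengths of 3390 and 5123 bases, against 2623 and 2773 annotated, so only the difference between groups in these ratios is read.

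**Figure D3:**
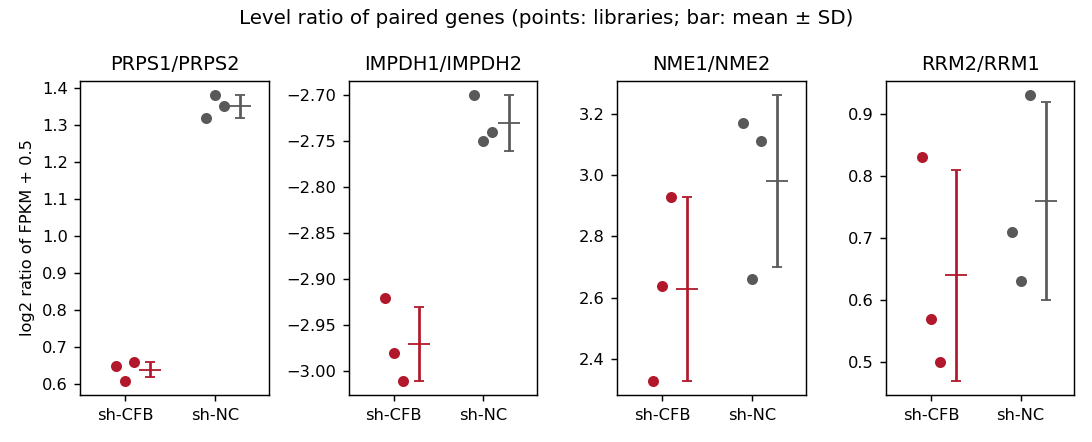
Log2 ratio of 2 related genes within each library (points), with mean ± SD beside them, for sh-CFB (left, n = 3) and sh-NC (right, n = 3); each panel has its own vertical axis, which does not start at 0. PRPS1/PRPS2 separates the groups by -0.71 and IMPDH1/IMPDH2 by -0.24, while the points of NME1/NME2 and RRM2/RRM1 overlap.

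How far the count of 11 held depended on single libraries. Without sh-NC replicate 2 none of the 30 genes passed, in a fit where 0.112% of all tested genes were lower. In that fit 16 of the 30 had an unadjusted p under 0.05, beside 17.0% of all tested genes, and the adjusted p of the 11 genes ran from 0.0659 to 0.1911. Without sh-CFB replicate 2 only RRM2 passed, where 0.249% of all tested genes were lower. Without sh-NC replicate 1 6 genes passed, where 1.65% were lower. Leaving out sh-CFB replicate 1 gave 10 lower genes (3.26% of all tested), sh-CFB replicate 3 gave 8 (2.69%) and sh-NC replicate 3 gave 9 (3.32%). RRM2 passed in 5 of the 6 fits with 1 library left out, PRPS1, GART, CTPS1, TYMS and DUT in 4, PFAS and RRM1 in 3, ATIC and CAD in 1 and UMPS in 0. The log2 difference of each of the 11 was below 0 in all 6. That sign was fixed in advance, since in each of the 11 every sh-CFB library lay below every sh-NC library. With replicate number as a block in the fit, 0 of the 11 passed (limma adjusted p from 0.1477 to 0.2777) and 0 of all tested genes did. Without both replicate 1 libraries 11 genes fell, 9 of them among the original 11, with CAD and UMPS lost and TK1 and DTYMK gained, where 4.24% of all tested genes were lower.

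The scale of the libraries mattered too. With median-of-ratios factors the median of all tested genes was 0.02 in place of -0.15, and 5 of the 11 genes still passed (PRPS1, GART, CTPS1, RRM1 and RRM2), the others lying between adjusted p = 0.0529 (PFAS) and 0.409 (ATIC), where 1.11% of all tested genes were lower and 0.545% higher. Set against the median tested gene, the nucleotide genes had a median of -0.32 as deposited, -0.28 with those factors and -0.23 after GC and length correction. That correction left 11 lower genes, 9 of the same, with ATIC and DUT lost and TK1 and HPRT1 gained (PRPS1 at -0.59 and UMPS at -0.44, both past the test), where 5.98% of all tested genes were lower and 4.64% higher. In voom on the recovered reads all 11 passed, beside 4.28% of all tested genes lower and 1.16% higher. The genes that fell had a median GC content of 47.3%, the tested nucleotide genes that did not pass 52.3%, and all tested genes 49.3%. Over all tested genes the calls were 217 higher and 712 lower as deposited, or 23.4% higher, against 33.0% with median-of-ratios factors, 42.2% with quantile normalization and 43.7% after GC and length correction.

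Other genes around these pathways were counted in the same way. Of 10 tested other genes of deoxynucleotide and dUTP handling 2 fell, of 12 other kinases 1, of 15 other salvage, uptake and PRPP genes 2, and of 14 breakdown genes 0, and none of these 51 rose as deposited. As deposited 9.8% of the 51 fell, beside 5.71% of all tested genes. After GC and length correction 2 of the 51 were lower and 2 higher, beside 5.98% and 4.64% of all tested genes. With median-of-ratios factors 1 of the 51 was lower, beside 1.11% of all tested genes. PNP, which splits purine nucleosides, and GMPR2, which turns GMP back to IMP, each fell by 0.57 on the log2 scale (adjusted p = 0.0326 and 0.0233). After the correction GMPR2 still passed and PNP did not (adjusted p = 0.0417 and 0.263), and with median-of-ratios factors neither did (0.141 and 0.226). The 2 higher genes, named after their values were seen, were ADSS1 at 0.37 (adjusted p = 0.0492) and UCKL1 at 0.30 (adjusted p = 0.0392) on the corrected scale.

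The folate enzymes that donate carbon to the purine ring and to thymidylate held 2 falls among 7 tested genes as deposited. MTHFD1, the cytosolic enzyme that makes formyl-folate for GART and ATIC, had 6.58, 8.11 and 7.73 FPKM in sh-CFB against 15.0, 14.2 and 12.7 FPKM in sh-NC. The groups were apart, by -0.86 (adjusted p = 0.0131). MTHFD1L, its mitochondrial counterpart, fell by 0.51 (adjusted p = 0.0272), a call lost after GC and length correction (-0.29, adjusted p = 0.113) and with median-of-ratios factors (adjusted p = 0.273). After the correction MTHFD1 and MTHFD2 were lower and FTCD was higher (0.47, adjusted p = 0.0309), the last 2 named after their values were seen. Genes of S phase and the replication fork were counted beside the nucleotide genes: 24 of 37 tested fell (64.9%), 0 rose, and the median log2 difference was -0.79. With median-of-ratios factors 11 of the 37 fell. PCNA, the sliding clamp, had 12.5, 12.8 and 12.9 FPKM in sh-CFB against 36.6, 31.8 and 35.1 FPKM in sh-NC, a difference of -1.40 (adjusted p = 0.00377). FEN1, MCM3 and CDC45, also of the replication fork, differed by -1.61, -1.55 and -1.29. Their part in the fall of the nucleotide genes was not tested.

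**Figure D4:**
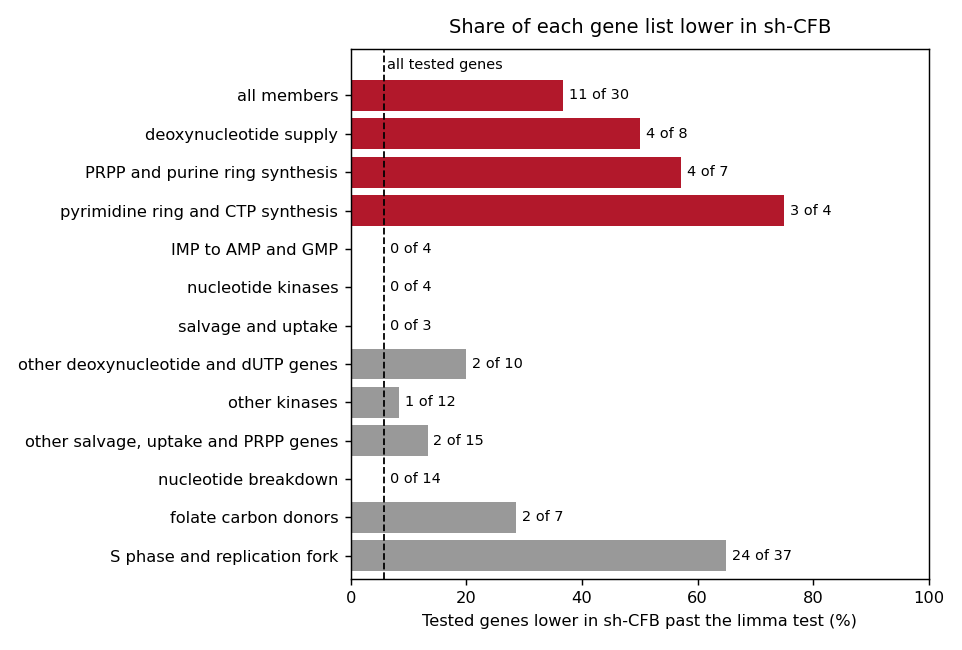
Share of tested genes lower in sh-CFB past the limma test (horizontal axis, percent), for the nucleotide genes as a whole and by step (red) and for other gene lists (grey); the numbers give lower genes of tested genes and the dashed line is the share over all tested genes, 5.71%. The 3 steps with falls lie at 4 of 8, 4 of 7 and 3 of 4, beside 24 of 37 for S phase and replication fork genes and 0 of 14 for nucleotide breakdown.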

How the data were processed

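RNA of sh-CFB and sh-NC NCI-H1299 cells was measured in 3 libraries each, made with a stranded mRNA kit, per the labels' protocols. The authors deposited FPKM values, 1 column per library. Per the submitters' processing notes, reads were handled with STAR 2.7.3a and featureCounts 2.0.1, beside Trimmomatic 0.39 and FastQC 0.11.9, on GRCh38. The sources used here do not give the strand setting, annotation release or FPKM formula. The column names read as siRNA and the titles as short hairpins, so the form of the reagent is not settled here.

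From these values, log2(FPKM + 0.5) was tested with limma 3.58.1 in R 4.3.3 (intensity trend, moderated test) for genes with a mean of at least 0.5 FPKM, with Benjamini-Hochberg adjustment over all of them. Fold changes on this scale understate changes of low genes. The fit was tested on simulated reads drawn without the GC lean of these libraries, so that test does not cover it. Whole reads were recovered from the FPKM steps (100.0% of genes, tolerance 0.001) and gave the depths; voom on those reads called 678 genes, against 929. Annotations and GC content came from GENCODE 29 on GRCh38, and GC and length were corrected by splines. Promoters came from RefSeq. Alternatives were other pseudocounts, filters, scalings and models, left-out libraries and a replicate block. Every gene of the list is named, and in other lists up to 4 genes per direction by adjusted p, of which some are not reported here. The genes, lists and steps were chosen with earlier results of these data known.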

Additional observations from a re-analysis of the deposited data

How the results depend on the processing

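The 929 genes called over the whole table (217 higher, 712 lower) became 324 without a filter, 206 with median-of-ratios factors, 531 without an intensity trend, 1101 with quantile normalization and 1324 after GC and length correction, and 20 to 540 with 1 library left out. The 11 lower nucleotide genes became 5 with median-of-ratios factors and 0 to 10 with 1 library left out, and numbered 8 to 13 under the other settings without a block. No nucleotide gene passed as higher under any setting run. Whether replicate numbers mark pairs is not settled here. Deviations of same-numbered libraries correlated at -0.54, 0.07 and -0.45 for numbers 1, 2 and 3. For numbers 1 and 3 the libraries leaned in opposite directions with GC content, so these correlations cannot exclude pairs. With the replicate block, limma called 0 genes and 0 nucleotide genes, with 1770 and 15 at an unadjusted p under 0.05. With the replicate block and GC correction it called 0 and 0, with 2478 and 13. The cause of these shifts was not tested.

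Of the 11 genes none changed sign, which for left-out libraries was fixed in advance because their groups did not overlap. The values that changed sign were all of genes that did not pass. With median-of-ratios factors PRPS2 was 0.00, IMPDH1 0.13, ADSS2 0.11, NME2 0.10 and CMPK1 0.09. With quantile normalization IMPDH1 was 0.01, ADSS2 0.11, NME2 0.09 and CMPK1 0.03. After GC and length correction, with or without the replicate block, PRPS2 was 0.06, ADSS2 0.17, CMPK1 0.08 and APRT -0.10. Without both replicate 1 libraries PPAT was 0.23, ADSS2 0.41, CMPK1 0.27 and APRT -0.26. With 1 library left out PPAT ran from -0.36 to 0.10, ADSS2 from -0.27 to 0.21, NME2 from -0.28 to 0.10, CMPK1 from -0.29 to 0.10 and APRT from -0.12 to 0.19. After GC and length correction the paired ratios differed between groups by -0.65 for PRPS1/PRPS2, -0.53 for IMPDH1/IMPDH2 and 0.03 for NME1/NME2. The tested nucleotide genes had 156 to 48920 reads per library, and the part of depth in missed calls was not tested; ADSL and CTPS2 were too low to compare, and 3 libraries per group limit every test.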
